A study of Mus musculus with 22 samples.

Results

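Amino acid transporters are membrane carriers of the solute carrier (Slc) families. The genes described here were the members of the Slc1a, Slc3a, Slc6a, Slc7a, Slc36a, Slc38a and Slc43a families. They were read in RNA sequencing of bone marrow myeloid cells and tumor tissue from VISTA knockout and wild-type mice. VISTA is a checkpoint protein encoded by Vsir. Members were found by gene symbol alone, leaving out Slc7a1, Slc7a2 and Slc7a11, which gave 52 of the 35255 genes in the study's 3 count tables. Of these, 36 were listed in the tumor table, 52 in the hypoxia table and 35 in the normoxia table. After a filter on low counts 24, 28 and 27 of them were tested in the tumor, hypoxia and normoxia tables. A total of 30 members were tested in at least 1 table and 22 in all 3.

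The study holds 22 libraries from VISTA knockout (KO) and wild-type (WT) mice, all on a C57BL/6N background. Tumor tissue of the mouse colon carcinoma model MC38 was taken at day 7 from 3 KO and 3 WT samples, and no label states a purification of cells from it. The authors' name for these counts, as for the culture counts, holds MDSC, the short form of myeloid-derived suppressor cells. Levels given below for tumors are those of these samples, whose share of MC38 cells is not stated. Bone marrow myeloid cells labelled hypoxia at 24 hours came from 4 KO and 4 WT samples. Bone marrow myeloid cells labelled normoxia at day 4 also came from 4 KO and 4 WT samples, and the series' design text gives GM-CSF and IL-6 as the cytokines of the normoxia culture. The text calls the normoxia samples independent biological replicates, while p-values elsewhere measure the spread between samples whose origin is not stated. How the knockout was made, and whether VISTA was lost in all cells of the mice, is not given in the sources used here.

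Cells cannot make the essential amino acids, so their supply depends on carriers of this kind. Some carriers couple uptake to sodium, chloride or protons, and others exchange one amino acid for another. Several Slc7 proteins reach the cell surface only as light chains bound to a heavy chain such as Slc3a2. A shortage of amino acids activates the kinase Gcn2 (Eif2ak4) and the transcription factor Atf4, which raises transcription of several carriers, while carriers of the lysosome take part in signalling to mTORC1. Activated and growing myeloid cells are known to depend on this supply.

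Library totals were 19119985 to 23089943 counts in KO tumors and 27452024 to 31716200 in WT tumors, so that each KO tumor library was shallower than each WT one. In hypoxia they were 30839108 to 30911687 in KO and 31060342 to 31385825 in WT cells, and in normoxia 23409142 to 23722932 over both genotypes. Levels are given as CPM, counts scaled to library depth with edgeR's TMM factors within each table. Vsir, the targeted gene, averaged 118 ± 8.36 CPM in KO tumors and 459 ± 28.3 CPM in WT tumors (SD, n = 3 each). In hypoxia Vsir averaged 147 ± 23.2 CPM in KO cells and 546 ± 44.3 CPM in WT cells, and in normoxia 177 ± 47.6 CPM in KO cells and 713 ± 97.5 CPM in WT cells (SD, n = 4 each). No KO library reached the lowest WT library of its table (two-sided exact permutation p = 0.0286 in each culture, and p = 0.1 in tumors, in each case the smallest the design allows). The KO mean of Vsir was 25.8% of the WT mean in tumors, 26.9% in hypoxia and 24.8% in normoxia. The data hold no values of VISTA protein. In the tumor libraries 12 monocyte and macrophage markers summed to 13200 to 18200 CPM in KO and 12600 to 17300 CPM in WT, while 7 epithelial markers summed to 24.9 to 58 CPM in KO and 16.7 to 34.7 CPM in WT, with Cldn4 not listed.

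Marker genes of several cell types moved with genotype. Over all genes 17.4% were called higher and 17.6% lower in hypoxia, 7.13% and 4.17% in normoxia, and 3.28% and 3.04% in tumors. Of 12 monocyte and macrophage markers 2 were higher and 2 lower in KO hypoxia cells, with sums of 1140 to 1840 CPM in KO and 1640 to 2220 CPM in WT. In normoxia 3 of these 12 were higher, with sums of 1170 to 1780 CPM in KO and 1150 to 1660 CPM in WT. Of 12 neutrophil markers, 11 were higher in KO than in WT cells in hypoxia and 9 in normoxia. Their summed level was 51800 to 63500 CPM in KO and 25700 to 34300 CPM in WT cells in hypoxia, and 47900 to 70400 CPM in KO and 33600 to 45600 CPM in WT cells in normoxia. In tumors 1 of the 8 neutrophil markers tested was higher in KO, with sums of 350 to 407 CPM in KO and 279 to 310 CPM in WT, and 5 of 8 T cell markers were lower, with sums of 9.32 to 15.8 CPM in KO and 24.3 to 47.4 CPM in WT. Of the eosinophil markers 7 of 7 were higher in hypoxia. Their sums there were 2040 to 3620 CPM in KO and 1050 to 1680 CPM in WT. In normoxia 3 of 5 tested were higher, with sums of 86.9 to 140 CPM in KO and 66.3 to 82 CPM in WT. In tumors 0 of 2 tested were called, and sums were 0.944 to 1.5 CPM in KO and 1.75 to 4.42 CPM in WT. Fibroblast markers summed to 461 to 592 CPM in KO and 376 to 445 CPM in WT tumors, with 0 of 6 called. Of those tested, 2 of 3 were higher in hypoxia, with sums of 23.6 to 32.3 CPM in KO and 14.9 to 24.3 CPM in WT. In normoxia 1 of 1 was higher, with sums of 9.08 to 12.6 CPM in KO and 3.97 to 6.15 CPM in WT. In hypoxia epithelial markers summed to 108 to 169 CPM in KO and 247 to 288 CPM in WT. Of 3 tested, 1 was higher and 1 lower. Erythroid markers were higher in KO tumors in 3 of 4 tested, with sums of 120 to 131 CPM in KO and 60.4 to 95.2 CPM in WT, and lower in hypoxia in 3 of 3, with sums of 5.67 to 11.8 CPM in KO and 23.7 to 80.2 CPM in WT. The share of counts from mitochondrial genes was 0.222% to 0.259% in KO and 0.112% to 0.212% in WT tumors, 3.72% to 4.96% in KO and 4.06% to 5.01% in WT hypoxia cells, and 4.55% to 5.72% in KO and 3.93% to 4.91% in WT normoxia cells. KO normoxia replicate 4 stood furthest from its group, with a mean correlation of 0.984 with the other 3, and without it 6 members were called in normoxia, the number with it. The part of depth, mitochondrial share and these markers in the transporter differences below was not tested. In bulk samples fewer cells of a type and less RNA per cell cannot be told apart.

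The promoters of members that were called lower in at least 2 KO comparisons are shown. Atf4 is known to act through sites in promoters of several carriers, and its part in these genes was not tested. RefSeq windows on GRCm38.p6 were at hand for 3 of these members, and none was at hand for Slc6a8. The stretch from 200 bases before to 20 bases after the annotated start is printed, 5′ to 3′ on the gene's strand. Capitals mark a match to TGATGNAA on either strand, the core letters of the amino acid response element. The stretches lie at chr11:20332694-20332913 for Slc1a4, chr19:8713878-8714097 for Slc3a2 and chr14:54781867-54782086 for Slc7a8, all on the minus strand.
Slc1a4: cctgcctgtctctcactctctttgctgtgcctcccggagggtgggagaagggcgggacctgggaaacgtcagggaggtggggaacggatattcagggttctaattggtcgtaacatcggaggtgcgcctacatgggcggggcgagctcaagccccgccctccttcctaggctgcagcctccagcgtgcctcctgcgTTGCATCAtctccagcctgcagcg
Slc3a2: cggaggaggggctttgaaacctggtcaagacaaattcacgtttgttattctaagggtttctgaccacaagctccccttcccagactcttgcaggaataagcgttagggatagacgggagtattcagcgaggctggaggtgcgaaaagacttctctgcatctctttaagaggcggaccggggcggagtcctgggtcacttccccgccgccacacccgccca
Slc7a8: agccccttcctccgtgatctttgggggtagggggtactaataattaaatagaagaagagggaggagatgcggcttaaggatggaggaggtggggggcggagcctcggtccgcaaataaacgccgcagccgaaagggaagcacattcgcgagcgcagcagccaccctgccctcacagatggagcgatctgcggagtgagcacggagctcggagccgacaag
Slc1a4 holds 1 match, on the opposite strand and across the start, and the windows of Slc3a2 and Slc7a8 hold none. The Slc3a2 window lies inside the span that the gene annotation gives it, 8706882 to 8723369 on the minus strand. The outer end of that span at 8723369 was not covered. Over the full windows, from 250 bases before to 50 after the start, 3.97% of 32851 windows and 4.51% of 27025 genes hold a match. Among the members 38 had a window, and 3 of them (7.89%) hold a match, namely Slc1a4, Slc6a21 and Slc7a7. A match is a run of letters and not evidence of binding, and the absence of one concerns these windows only.

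The 6 groups differed in which carriers were most abundant, here compared per kilobase (kb) of exon. The exon length merges all annotated exons of a gene, and the order between genes depends on that choice. Slc3a2, the heavy chain of the CD98 complex, led in tumors, with 144 ± 1.43 CPM per kb in KO and 168 ± 6.87 in WT (SD, n = 3 each). Slc7a8, a light chain that carries large neutral amino acids, was next, with 84.1 ± 2.75 CPM per kb in KO tumors and 108 ± 6.82 in WT tumors. The third in tumors was Slc6a6, the taurine transporter, with 38.4 ± 1.58 CPM per kb in KO and 44.7 ± 0.734 in WT. In hypoxia the leading level in KO cells was that of Slc6a6, with 70.6 ± 7.22 CPM per kb, followed by Slc3a2 at 62.8 ± 2.76. In WT hypoxia cells Slc7a5, Slc6a6 and Slc3a2 lay within their spread of each other at 78.4 ± 4.42, 78.1 ± 5.29 and 76 ± 2.41 CPM per kb (SD, n = 4 each). Slc7a5, the other main light chain for large neutral amino acids, was also high in normoxia, with 42.7 ± 12.2 CPM per kb in KO cells and 61.8 ± 13.8 in WT cells. In tumors the level of Slc7a5 was 5.48 ± 0.549 CPM per kb in KO and 5.85 ± 1.17 in WT.

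The tables were scaled separately, so these levels are set side by side across experiments without a test. Slc7a7, a light chain that exchanges cationic for neutral amino acids, had 20 ± 0.807 CPM per kb in KO tumors and 22 ± 1.97 in WT tumors, against 3.77 to 3.99 in the means of the 4 culture groups. The reverse order held for Slc36a1, a proton-coupled carrier of small neutral amino acids at the lysosome, with 1.94 ± 0.317 CPM per kb in KO tumors and 1.98 ± 0.0572 in WT tumors but group means of 17.8 to 22.1 in the cultures. Slc43a3, a carrier of purine nucleobases within an amino acid transporter family, had 1.07 ± 0.171 CPM per kb in KO tumors and 0.899 ± 0.0948 in WT tumors, against 16.2 to 22 in the culture groups. Slc6a12 and Slc6a13, which carry betaine and GABA, were near the lower limit in tumors, at 0.0483 ± 0.0421 and 0.0767 ± 0.0149 CPM per kb in KO, and reached group means of 4.3 to 6.65 and 2.08 to 5.68 in the cultures. Slc6a15 and Slc6a19, carriers of neutral amino acids, passed the filter on low counts in the tumor table only.

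**Figure D1:**
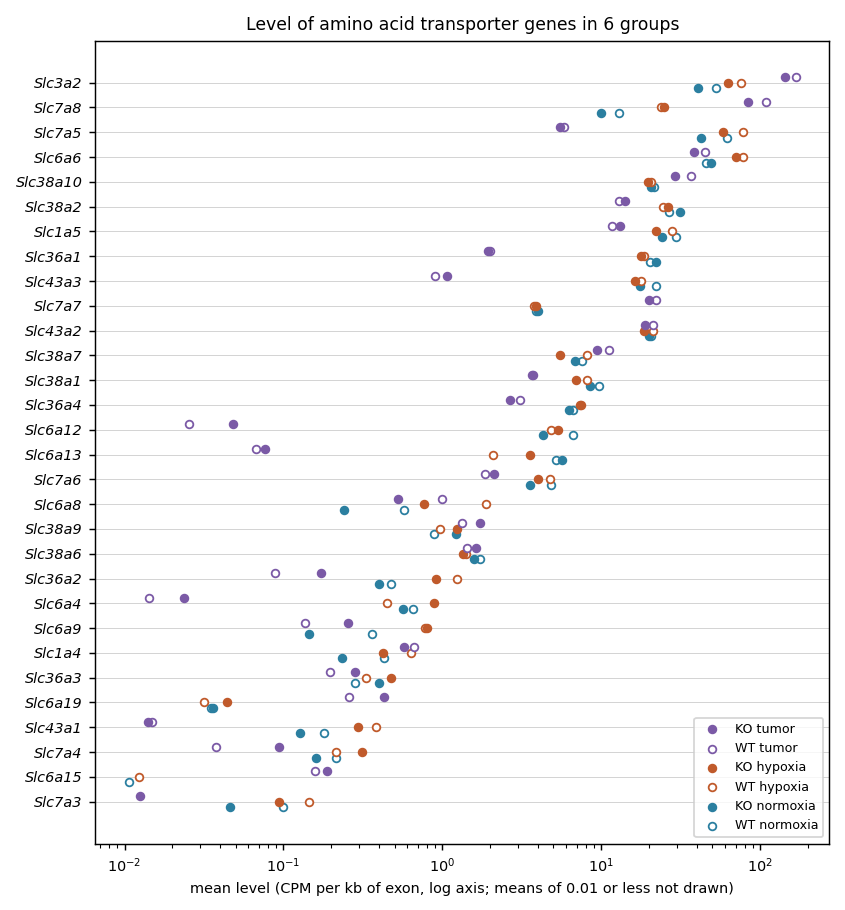
Mean level of the 30 tested amino acid transporter genes in each of the 6 groups, in CPM per kb of exon on a log axis (filled points KO, open points WT; means of 0.01 or less are not drawn; n = 3 per tumor group and 4 per culture group). Slc3a2 and Slc7a8 were highest in tumors, while Slc7a5, Slc36a1, Slc43a3, Slc6a12 and Slc6a13 were higher in the cultures.

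The members summed to 2050 to 2120 CPM in KO tumors and 2350 to 2510 CPM in WT tumors, so that every KO tumor library lay below every WT library. The same held in hypoxia, with 2200 to 2340 CPM in KO cells and 2380 to 2600 CPM in WT cells, while the sums overlapped in normoxia, with 1880 to 2090 CPM in KO cells and 2000 to 2250 CPM in WT cells. Slc6a6 alone made up 15.1% to 29.3% of the sum, and 15.1% to 16% in tumors. More abundant in tumors were Slc3a2, with 509 ± 5.06 CPM in KO and 592 ± 24.2 in WT, and Slc7a8, with 421 ± 13.8 and 538 ± 34.1 (SD, n = 3 each). Such sums weigh the most abundant members most. Of the 24 members tested in tumors, 12 had a log2 fold change above 0 and 12 below. The 22 members tested in no table had at most 7 counts in any tumor library, 9 in any hypoxia library and 3 in any normoxia library. They include the glutamate carriers Slc1a1, Slc1a2 and Slc1a3, the GABA carrier Slc6a11, the dopamine and noradrenaline carriers Slc6a3 and Slc6a2, and the heavy chain Slc3a1 with its light chain Slc7a9.

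The VISTA knockout went with lower RNA of a small set of carriers. In KO tumors 3 of 24 members tested were lower than in WT tumors and 0 were higher by edgeR's quasi-likelihood test with Benjamini-Hochberg adjustment at 0.05, where 3.04% of all 14370 genes tested were called lower, 3.28% higher and 6.32% either way. In hypoxia 7 of 28 members were lower in KO cells and 2 were higher, where 17.6% of 15018 genes were called lower, 17.4% higher and 34.9% either way. In normoxia 6 of 27 members were lower in KO cells and 0 were higher, where 4.17% of 13950 genes were called lower, 7.13% higher and 11.3% either way. The share of members called in hypoxia, 32.1%, was near that of all genes. The members' median log2 fold change of KO over WT was 0 in tumors, -0.1 in hypoxia and -0.2 in normoxia, beside medians over all tested genes of 0.01, -0.01 and -0.02. The test called 13 members in at least 1 comparison. Slc6a8 was called lower in all 3, Slc3a2 and Slc1a4 in both cultures, and Slc7a8 in tumors and normoxia. Tested against a fold of 1.2 in place of 0 change, the calls of Slc6a8, Slc38a7, Slc6a13 and Slc6a4 stood in hypoxia and those of Slc6a8, Slc6a9 and Slc6a12 in normoxia, while 0 stood in tumors.

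By their ranges alone, 6 of the 24 tested members lay lower in every KO tumor library than in any WT tumor library and 5 lay higher, where 26.1% of all genes had groups that did not overlap, 13% in each direction. In hypoxia 5 of 28 members lay lower and 2 higher in this sense, where 32.6% of all genes did not overlap, 15.7% with KO lower and 16.9% with KO higher. In normoxia 7 of 27 lay lower and 1 higher, where 20% of all genes did not overlap, 9.33% with KO lower and 10.7% with KO higher.

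**Figure D2:**
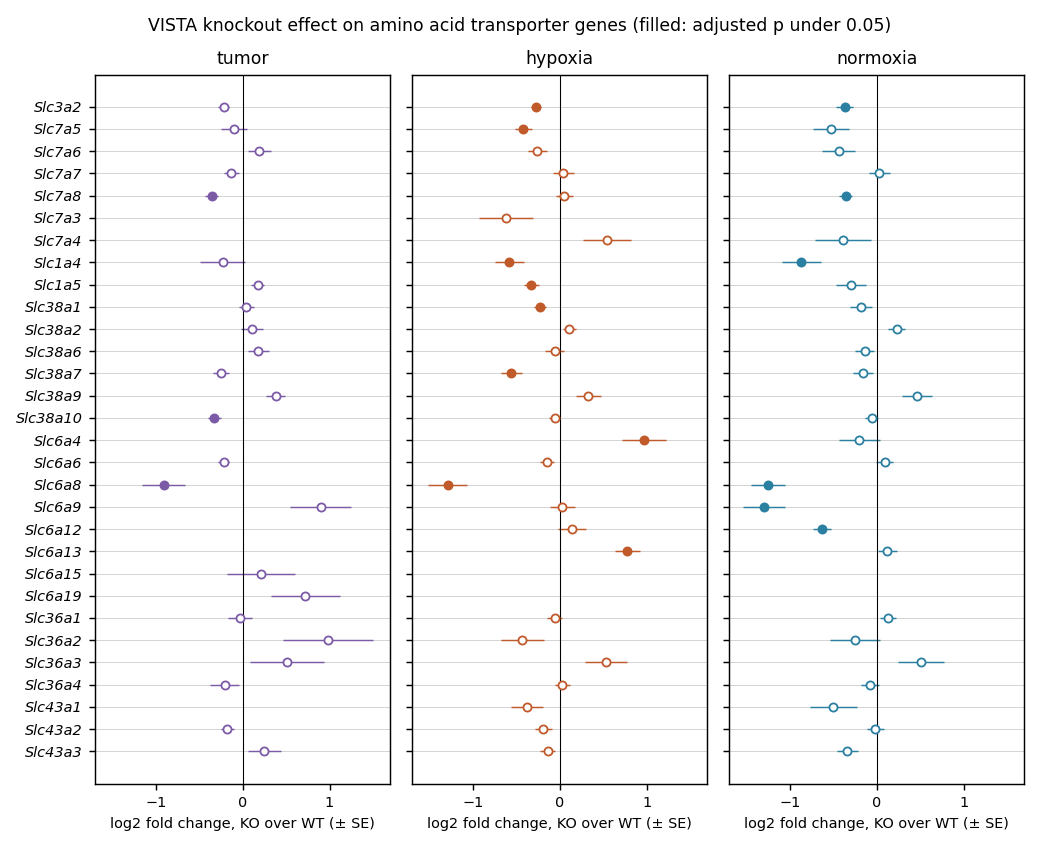
Log2 fold change of KO over WT (± SE from edgeR) for the members tested in tumors (n = 3 each), hypoxia and normoxia (n = 4 each), with genes ordered by family and filled points for an adjusted p under 0.05. Slc6a8 lies furthest to the left or close to it in all 3 panels, at -0.91, -1.29 and -1.25, and filled points right of 0 occur only in hypoxia.

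Among the subunits of heteromeric carriers, the heavy chain was lower in KO cells in both cultures. Slc3a2 (GRCm38 chromosome 19, 8706882 to 8723369, minus strand) had 229, 214, 213 and 231 CPM in KO hypoxia libraries, against 263, 271, 260 and 279 CPM in WT. In normoxia Slc3a2 had 154, 152, 146 and 121 CPM in KO libraries, against 171, 201, 172 and 196 CPM in WT. Every KO library lay below every WT library in both cultures. The log2 fold change was -0.27 ± 0.0573 (SE, edgeR adjusted p = 0.00379) in hypoxia and -0.37 ± 0.0977 (SE, edgeR adjusted p = 0.0359) in normoxia. The normoxia call was lost without KO replicate 3 (adjusted p = 0.0845), WT replicate 1 (0.0654), WT replicate 2 (0.0932) or WT replicate 4 (0.0988). In tumors Slc3a2 had 514, 508 and 504 CPM in KO libraries, against 571, 618 and 587 CPM in WT. The tumor groups did not overlap either, but the difference of -0.22 ± 0.0657 missed the threshold (SE, edgeR adjusted p = 0.073).

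Slc7a5 (chromosome 8, 121881150 to 121907694, minus strand), the light chain that pairs with Slc3a2 for uptake of leucine and other large neutral amino acids, was lower in KO cells in hypoxia. It had 202, 202, 193 and 269 CPM in KO hypoxia libraries, against 286, 269, 305 and 302 CPM in WT. The log2 fold change was -0.42 ± 0.0984 (SE, edgeR adjusted p = 0.00667), and the KO libraries all lay below the WT libraries, the highest of them only narrowly. In normoxia Slc7a5 had 183, 199, 156 and 96.4 CPM in KO libraries, against 205, 288, 172 and 252 CPM in WT. These groups overlapped, and the log2 fold change of -0.53 ± 0.21 did not pass the test (SE, edgeR adjusted p = 0.113), with a value of -0.36 without KO replicate 4. In tumors Slc7a5 had 22.1, 18.1 and 20.7 CPM in KO libraries, against 23.8, 24.6 and 16.7 CPM in WT, with overlapping groups.

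Slc7a8 (chromosome 14, 54722209 to 54781946, minus strand) was lower in KO than in WT libraries in tumors and in normoxia. It had 426, 431 and 405 CPM in KO tumor libraries, against 541, 571 and 503 CPM in WT. In normoxia it had 51.3, 52.2, 47.2 and 49.4 CPM in KO libraries, against 61.1, 70.7, 61.7 and 63.9 CPM in WT. The groups did not overlap in either experiment, and the log2 fold change was -0.36 in both, with an SE of 0.0713 in tumors (edgeR adjusted p = 0.0108) and of 0.0787 in normoxia (edgeR adjusted p = 0.0161). The tumor call was lost without KO replicate 1 (adjusted p = 0.0584) or KO replicate 2 (0.0664). The normoxia call was lost without KO replicate 3 (0.0595), WT replicate 2 (0.0533) or WT replicate 4 (0.0526). In hypoxia Slc7a8 had 131, 134, 114 and 116 CPM in KO libraries, against 97.8, 129, 114 and 136 CPM in WT, and the groups overlapped (log2 fold change 0.05 ± 0.0989, SE).

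The difference between the Slc7a8 effects in tumors and in hypoxia was itself past the threshold, at -0.45 ± 0.134 on the log2 scale (SE, interaction term, edgeR adjusted p = 0.037). In that comparison 10.2% of all 16577 genes and 2 of 30 members were called. The call was lost under 9 of the 14 ways of leaving out 1 library, with adjusted p up to 0.0982 without WT tumor replicate 2. The other light chains, Slc7a6 and Slc7a7, passed the test in none of the 3 experiments. Slc7a6 had log2 fold changes of 0.19 in tumors, -0.26 in hypoxia and -0.44 in normoxia, and Slc7a7 of -0.13, 0.04 and 0.03. Slc7a3, a carrier of cationic amino acids, and its relative Slc7a4 were likewise not called where tested.

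**Figure D3:**
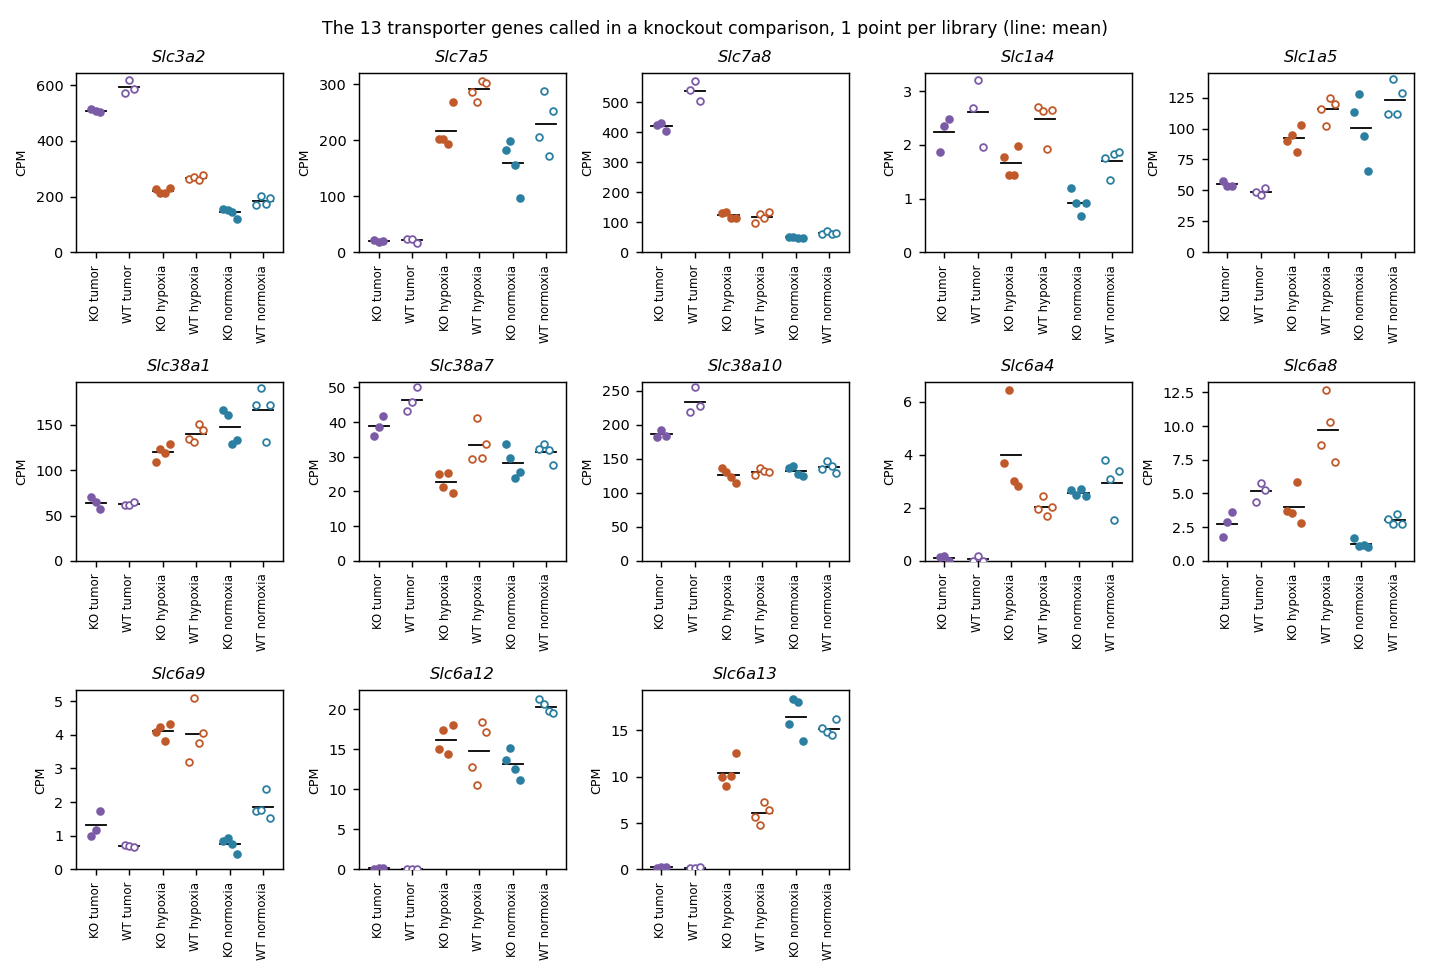
Level in CPM of the 13 members called in at least 1 KO comparison, with 1 point per library (filled KO, open WT), a line at the group mean and each axis starting at 0 (n = 3 per tumor group and 4 per culture group). The KO points of Slc6a8 lie below the WT points in tumors, hypoxia and normoxia, and those of Slc6a13 lie above the WT points in hypoxia.

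Both neutral amino acid carriers of the Slc1 family were lower in KO cells in hypoxia, where 17.6% of all genes were called lower. Slc1a4 (chromosome 11, 20302180 to 20332713, minus strand), an exchanger of alanine, serine and cysteine whose promoter is printed above, had 1.77, 1.45, 1.44 and 1.98 CPM in KO hypoxia libraries, against 2.71, 2.63, 1.93 and 2.66 CPM in WT. WT replicate 3 was the one WT library within the KO range. In normoxia Slc1a4 had 1.19, 0.923, 0.67 and 0.917 CPM in KO libraries, against 1.75, 1.35, 1.83 and 1.87 CPM in WT, with no overlap. These levels rest on few reads, 15 to 85 counts per culture library. The log2 fold change was -0.58 ± 0.172 in hypoxia (SE, edgeR adjusted p = 0.0217) and -0.87 ± 0.221 in normoxia (SE, edgeR adjusted p = 0.0302). The hypoxia call was lost without KO replicate 2 (adjusted p = 0.0646), KO replicate 3 (0.0587), WT replicate 1 (0.061) or WT replicate 4 (0.0522). The normoxia call was lost without KO replicate 3 (0.0839), WT replicate 1 (0.0817) or WT replicate 4 (0.0848). In tumors Slc1a4 had 1.87, 2.36 and 2.48 CPM in KO libraries, against 2.69, 3.21 and 1.96 CPM in WT, and the groups overlapped.

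Slc1a5 (chromosome 7, 16781340 to 16798274, plus strand) is a sodium-dependent exchanger known for glutamine uptake. It had 89.7, 95.1, 80.8 and 103 CPM in KO hypoxia libraries, against 116, 102, 125 and 120 CPM in WT, and the highest KO library lay just above the lowest WT library. The log2 fold change was -0.33 ± 0.0849 (SE, edgeR adjusted p = 0.011). In normoxia Slc1a5 had 113, 128, 93.6 and 65.9 CPM in KO libraries, against 112, 140, 112 and 129 CPM in WT, and the difference of -0.3 ± 0.171 did not pass the test (SE, edgeR adjusted p = 0.243). It was -0.14 without KO replicate 4 and -0.44 without KO replicate 2. In tumors Slc1a5 had 57.6, 53.5 and 53.6 CPM in KO libraries, against 48.4, 46.6 and 51.7 CPM in WT. There each KO library lay above each WT library, though the log2 fold change of 0.17 ± 0.0773 missed the threshold (SE, edgeR adjusted p = 0.246). The effects in tumors and hypoxia differed by 0.45 ± 0.126 on the log2 scale (SE, interaction term, edgeR adjusted p = 0.0253), and that call was lost without KO tumor replicate 1 (adjusted p = 0.0703), WT tumor replicate 1 (0.0518), WT tumor replicate 2 (0.0613) or WT hypoxia replicate 3 (0.0538).

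Of the sodium-coupled neutral amino acid carriers of the Slc38 family, 2 of 6 were called lower in hypoxia, 1 of 6 in tumors and 0 of 6 in normoxia. Over all genes 17.6% were called lower in hypoxia, 3.04% in tumors and 4.17% in normoxia. Slc38a7 (chromosome 8, 95835920 to 95853539, minus strand), a lysosomal exporter of glutamine, had 25.1, 21.4, 25.2 and 19.5 CPM in KO hypoxia libraries, against 29.4, 41.1, 29.6 and 33.8 CPM in WT. The groups did not overlap, and the log2 fold change was -0.56 ± 0.119 (SE, edgeR adjusted p = 0.00443). It lay in the same order without a call in tumors, where it had 36.1, 38.7 and 41.9 CPM in KO libraries, against 43.2, 45.9 and 50.1 CPM in WT (log2 fold change -0.25 ± 0.089, SE, edgeR adjusted p = 0.123). In normoxia it had 33.7, 29.7, 23.8 and 25.6 CPM in KO libraries, against 32.3, 33.7, 31.9 and 27.7 CPM in WT, with overlap.

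Slc38a1 (chromosome 15, 96571418 to 96642913, minus strand), a plasma membrane carrier of glutamine and alanine, had 109, 123, 119 and 129 CPM in KO hypoxia libraries, against 135, 131, 151 and 144 CPM in WT. All KO libraries lay below all WT libraries by a small margin, with a log2 fold change of -0.23 ± 0.0704 (SE, edgeR adjusted p = 0.0273). The call was lost without KO replicate 1 (adjusted p = 0.078), KO replicate 2 (0.0527), KO replicate 3 (0.0601), WT replicate 3 (0.0977) or WT replicate 4 (0.0628). Slc38a1 had 70.5, 65.3 and 57.4 CPM in KO tumor libraries, against 62.2, 61.5 and 64.7 CPM in WT. In normoxia it had 167, 161, 129 and 133 CPM in KO libraries, against 172, 191, 131 and 172 CPM in WT. The groups overlapped in both of these experiments.

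Slc38a10 (chromosome 11, 120103960 to 120151346, minus strand), a less studied relative, had 182, 192 and 184 CPM in KO tumor libraries, against 219, 256 and 227 CPM in WT. The tumor groups did not overlap, and the log2 fold change was -0.33 ± 0.075 (SE, edgeR adjusted p = 0.0196). The call was lost without KO replicate 1 (adjusted p = 0.114), KO replicate 2 (0.0814) or WT replicate 2 (0.0626), and 367 of its 6421 exon bases also lie in a gene on the other strand, which the counting may not tell apart. In hypoxia it had 136, 130, 123 and 115 CPM in KO libraries, against 126, 136, 132 and 130 CPM in WT. In normoxia it had 137, 139, 128 and 125 CPM in KO libraries, against 135, 146, 140 and 129 CPM in WT. Both culture comparisons overlapped.

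Slc38a9, the lysosomal arginine sensor of the mTORC1 pathway, lay on the other side of 0 without passing the test. Its log2 fold change was 0.38 ± 0.109 in tumors (SE, edgeR adjusted p = 0.0603), 0.33 ± 0.144 in hypoxia (SE, edgeR adjusted p = 0.0911) and 0.46 ± 0.175 in normoxia (SE, edgeR adjusted p = 0.0994). In tumors it had 31.6, 27.6 and 27.3 CPM in KO libraries, against 24.9, 19.7 and 22 CPM in WT, with no overlap. Slc38a2, a carrier known to be induced when amino acids run short, had log2 fold changes of 0.11 in tumors, 0.11 in hypoxia and 0.23 in normoxia, none past the threshold. Slc38a6 was not called in any comparison.

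The sodium- and chloride-coupled Slc6 family held the members with the widest differences in the cultures. Slc6a8 (chromosome X, 73673150 to 73682502, plus strand), which takes up creatine, was the one member called lower in KO in all 3 experiments. It had 1.79, 2.88 and 3.61 CPM in KO tumor libraries, against 4.4, 5.8 and 5.29 CPM in WT. In hypoxia Slc6a8 had 3.67, 3.53, 5.88 and 2.8 CPM in KO libraries, against 8.62, 12.7, 10.3 and 7.3 CPM in WT. In normoxia it had 1.7, 1.09, 1.16 and 1.05 CPM in KO libraries, against 3.1, 2.7, 3.44 and 2.74 CPM in WT. No KO library reached a WT library of the same experiment, and the KO mean was 53.4% of the WT mean in tumors, 40.8% in hypoxia and 41.8% in normoxia. The log2 fold change was -0.91 ± 0.245 in tumors (SE, edgeR adjusted p = 0.0456), -1.29 ± 0.223 in hypoxia (SE, edgeR adjusted p = 0.00129) and -1.25 ± 0.197 in normoxia (SE, edgeR adjusted p = 0.00434). Both culture calls stood with any 1 library left out. The tumor call was lost without KO replicate 1 (adjusted p = 0.168), KO replicate 2 (0.125), WT replicate 2 (0.17) or WT replicate 3 (0.0705), and with scaling by library size alone (0.0527). Its counts were low, from 23 to 395 per library.

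Slc6a9 (chromosome 4, 117834506 to 117875198, plus strand), a glycine transporter, was lower in KO cells in normoxia only, and here the difference between the cultures was tested. In normoxia it had 0.849, 0.923, 0.759 and 0.459 CPM in KO libraries, against 1.75, 1.76, 2.38 and 1.54 CPM in WT. In hypoxia it had 4.07, 4.22, 3.82 and 4.33 CPM in KO libraries, against 3.19, 5.09, 3.77 and 4.04 CPM in WT. The normoxia groups stood apart while the hypoxia groups overlapped. The log2 fold change was -1.3 ± 0.247 in normoxia (SE, edgeR adjusted p = 0.00988) and 0.03 ± 0.145 in hypoxia (SE, edgeR adjusted p = 0.892). The KO effect in hypoxia minus that in normoxia was 1.33 ± 0.272 (SE, interaction term, edgeR adjusted p = 0.0303), the 1 call among 28 members in a comparison where 0.477% of 15293 genes were called. That call was lost under 10 of the 16 ways of leaving out 1 library (adjusted p up to 0.0713, without KO hypoxia replicate 2).

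In tumors Slc6a9 had 1, 1.18 and 1.75 CPM in KO libraries, against 0.738, 0.706 and 0.652 CPM in WT. These groups did not overlap, and the log2 fold change of 0.9 ± 0.35 missed the threshold (SE, edgeR adjusted p = 0.167). The gene had 10 to 159 counts per library. Of its 5141 exon bases, 1555 also lie in genes on the other strand, so part of these counts may belong to them.

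Slc6a12 and Slc6a13 are neighbours on chromosome 6 (121343076 to 121365775 and 121300227 to 121337733, both plus strand), and they differed in where KO and WT stood apart. Slc6a12 had 13.6, 15.2, 12.6 and 11.2 CPM in KO normoxia libraries, against 21.3, 20.6, 19.8 and 19.5 CPM in WT. With no overlap, its log2 fold change was -0.63 ± 0.106 (SE, edgeR adjusted p = 0.00587). In hypoxia Slc6a12 had 15, 17.4, 14.4 and 18 CPM in KO libraries, against 12.8, 10.6, 18.4 and 17.1 CPM in WT, with overlap. Slc6a13 had 9.94, 9.03, 10.1 and 12.5 CPM in KO hypoxia libraries, against 5.62, 4.84, 7.26 and 6.42 CPM in WT. Each KO library lay above each WT library, and the log2 fold change was 0.78 ± 0.141 (SE, edgeR adjusted p = 0.00157). In normoxia Slc6a13 had 15.7, 18.4, 18 and 13.8 CPM in KO libraries, against 15.2, 14.8, 14.5 and 16.2 CPM in WT, with overlap. The difference of the KO effects between the cultures was 0.76 ± 0.2 for Slc6a12 (SE, edgeR adjusted p = 0.121) and 0.66 ± 0.178 for Slc6a13 (SE, edgeR adjusted p = 0.134), neither past the threshold.

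Slc6a4 (chromosome 11, 76998603 to 77032340, plus strand) is the serotonin transporter, known from platelets, mast cells and neurons. It had 3.7, 6.43, 3.01 and 2.83 CPM in KO hypoxia libraries, against 1.95, 2.43, 1.71 and 2.04 CPM in WT. All KO libraries lay above all WT libraries, and the log2 fold change was 0.97 ± 0.251 (SE, edgeR adjusted p = 0.0112), or 0.64 without KO replicate 2. In the same libraries 8 of 8 mast cell and basophil markers were higher in KO, with sums of 739 to 1070 CPM in KO and 476 to 737 CPM in WT. Of the megakaryocyte and platelet markers 4 of 4 tested were higher, with sums of 179 to 291 CPM in KO and 106 to 127 CPM in WT. The part of these cells in the Slc6a4 result was not tested. In normoxia Slc6a4 had 2.67, 2.48, 2.72 and 2.43 CPM in KO libraries, against 3.81, 3.07, 1.53 and 3.4 CPM in WT, with overlap, while 7 of 7 mast cell and basophil markers tested were higher there, with sums of 93.4 to 128 CPM in KO and 44.5 to 64.2 CPM in WT, and 2 of 3 platelet markers. In tumors Slc6a4 had at most 6 counts in a library.

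Slc6a6 had 330, 335 and 310 CPM in KO tumor libraries, against 379, 383 and 371 CPM in WT. The tumor groups did not overlap, but the difference missed the threshold (log2 fold change -0.22 ± 0.0658, SE, edgeR adjusted p = 0.0727). Its log2 fold change was -0.15 in hypoxia and 0.09 in normoxia, also not called.

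The proton-coupled Slc36 family and the facilitative Slc43 family held no called member in any of the 3 experiments. Of the 4 Slc36 genes tested, the 2 with most reads, Slc36a1 and Slc36a4, had log2 fold changes between -0.21 and 0.13. Slc36a2, a carrier of glycine and proline, had a log2 fold change of 0.98 ± 0.52 in tumors (SE, edgeR adjusted p = 0.312), at means of 0.563 CPM in KO and 0.288 CPM in WT. In the Slc43 family, Slc43a3 had 77.8 ± 13.7 CPM in KO and 98.3 ± 7.01 CPM in WT normoxia cultures (SD, n = 4 each), with every KO library below every WT library and an edgeR adjusted p of 0.0859. Slc43a2, which carries large neutral amino acids without coupling to an ion gradient, had log2 fold changes of -0.18, -0.19 and -0.02 in tumors, hypoxia and normoxia.

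Of the 30 tested members, Slc38a9, Slc38a10, Slc43a2, Slc6a6, Slc6a9, Slc7a4 and Slc7a7 share exon bases with genes on the other strand, and whether the counting told strands apart is not given in the sources used here.

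Several carriers were more abundant in the hypoxia cultures than in the normoxia cultures in both genotypes, in a joint fit of the 16 culture libraries. Oxygen cannot be told apart here from culture time or from the table and its depth, since each condition stands in its own table. Marker sums of some cell types differed as well, each scaled within its table. Eosinophil sums were 86.9 to 140 CPM in KO and 66.3 to 82 CPM in WT cells in normoxia. In hypoxia they were 2040 to 3620 CPM in KO and 1050 to 1680 CPM in WT cells. Mast cell and basophil sums and platelet sums were also higher in hypoxia, while neutrophil sums overlapped between the cultures in each genotype. The part of cell composition in the differences below was not tested. In KO cells 14 of 28 members were higher in hypoxia and 1 was lower, where 26.1% of 15293 genes were called higher, 25.6% lower and 51.7% either way. In WT cells 10 of 28 members were higher and 2 were lower, where 26.6% of genes were called higher, 25% lower and 51.7% either way. The median log2 fold change of the members was 0.36 in KO and 0.19 in WT cells, beside -0.02 and -0.01 over all genes.

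Slc6a9 differed most in KO cells, with a log2 fold change of hypoxia over normoxia of 2.56 ± 0.201, against 1.23 ± 0.175 in WT cells (SE, edgeR adjusted p = 7.14e-09 in KO and 1.31e-05 in WT). Slc6a8 was higher in hypoxia by 1.77 ± 0.243 in KO and 1.81 ± 0.209 in WT cells (SE), and the KO effects on it in the cultures differed by -0.04 ± 0.323. Slc7a8 was higher by 1.42 ± 0.0936 in KO and 1 ± 0.0924 in WT cells, a difference of 0.42 ± 0.13 that did not pass the interaction test (SE, edgeR adjusted p = 0.235). The heavy chain Slc3a2 was higher by 0.74 ± 0.0771 in KO and 0.65 ± 0.0768 in WT cells, and the taurine carrier Slc6a6 by 0.65 ± 0.0927 and 0.88 ± 0.093. Slc43a1, Slc36a2, Slc1a4, Slc7a5 and Slc36a4 were also called higher in both genotypes, with log2 fold changes of 0.25 to 1.48. In WT cells the calls of Slc7a5 and Slc36a4 were lost under 11 and 12 of the 16 ways of leaving out 1 library (adjusted p up to 0.141 without WT normoxia replicate 3 and 0.182 without WT hypoxia replicate 2), and in KO cells that of Slc7a5 was lost without KO hypoxia replicate 4 (0.0575).

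Slc6a13 was the 1 member lower in hypoxia in both genotypes, by -0.55 ± 0.125 in KO and -1.22 ± 0.129 in WT cells (SE, edgeR adjusted p = 0.00122 in KO and 3.81e-07 in WT). Its neighbour Slc6a12 was called higher in KO cells, by 0.42 ± 0.142, and lower in WT cells, by -0.35 ± 0.14 (SE, edgeR adjusted p = 0.0197 in KO and 0.0454 in WT). Slc6a4, Slc7a3 and Slc7a4 were called higher in hypoxia in KO cells, at 0.75, 1.11 and 1.05, and were not called in WT cells, at -0.43, 0.66 and 0.11. None of these genes passed the interaction test, so a difference between the genotypes was not shown for them. With 1 library left out, the Slc6a12 call was lost in 10 of 16 fits in WT cells (adjusted p up to 0.171 without WT hypoxia replicate 2) and in 4 of 16 in KO cells (up to 0.0547 without KO hypoxia replicate 4). The KO call of Slc7a3 was lost in 4 of 16 (up to 0.133 without KO hypoxia replicate 4) and that of Slc6a4 without KO hypoxia replicate 2 (0.138).

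**Figure D4:**
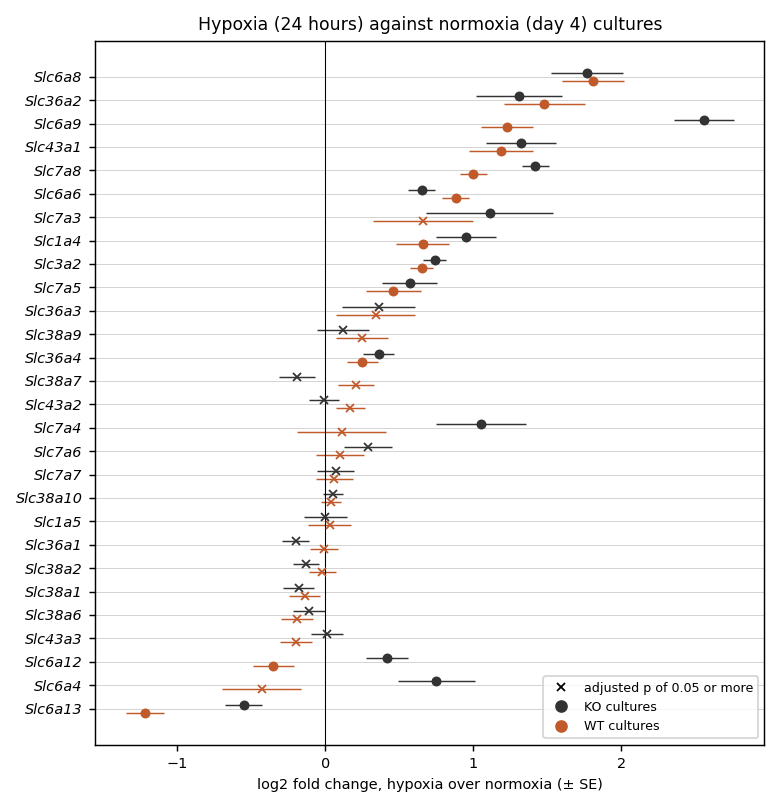
Log2 fold change of hypoxia over normoxia (± SE from edgeR) for the 28 members tested in the 16 culture libraries, in KO cells (black) and WT cells (orange), where a cross marks an adjusted p of 0.05 or more. Most circles lie right of 0, with Slc6a9 in KO cells at 2.56, and Slc6a13 lies left of 0 in both genotypes.

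Carriers outside the member families were read from the same fits, from a list chosen with earlier results of these data known. In KO tumors 1 of 21 tested genes of this wider list was higher and 2 were lower, in hypoxia 1 of 23 was higher and 12 were lower, and in normoxia 0 of 23 were higher and 6 were lower. Over all genes 3.28% were higher and 3.04% lower in tumors, 17.4% and 17.6% in hypoxia, and 7.13% and 4.17% in normoxia. The list's median log2 fold change was -0.06 in tumors, -0.29 in hypoxia and -0.01 in normoxia, beside 0.01, -0.01 and -0.02 over all genes. The arginine carrier Slc7a2 averaged 62.5 ± 23.5 CPM in KO and 124 ± 34.1 CPM in WT cells in hypoxia, and 11.2 ± 1.2 CPM in KO and 29.8 ± 4.12 CPM in WT cells in normoxia (SD, n = 4 each). Both were called, with log2 fold changes of -0.99 and -1.41 (edgeR adjusted p = 0.0301 and 0.000107). In tumors Slc7a2 was at -0.08 and not called. Slc7a1, another arginine carrier, was lower in hypoxia by -0.56 ± 0.139 (SE, edgeR adjusted p = 0.0101), and its normoxia value of -0.65 ± 0.244 did not pass (SE, edgeR adjusted p = 0.0968).

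Slc7a11, the cystine exchanger that also binds Slc3a2, differed in direction between tumors and cultures. It averaged 16.6 ± 1.66 CPM in KO and 11.3 ± 1.41 CPM in WT tumors (SD, n = 3 each), a log2 fold change of 0.55 ± 0.13 (SE, edgeR adjusted p = 0.0241). In hypoxia it averaged 30 ± 4.64 CPM in KO and 42.1 ± 4.3 CPM in WT cells (SD, n = 4 each), and its log2 fold change was -0.49 ± 0.109 in hypoxia and -0.65 ± 0.12 in normoxia (SE, edgeR adjusted p = 0.0055 and 0.00902). The tumor effect minus the hypoxia effect was 1 ± 0.168 (SE, interaction term, edgeR adjusted p = 0.000752). Among the other carriers called, Slc25a13, the mitochondrial aspartate-glutamate exchanger, was at -0.76 in hypoxia. Mfsd12, which is needed to import cysteine into lysosomes, was at -0.44 in hypoxia and -0.43 in normoxia, and Slc15a3, a lysosomal histidine and peptide carrier, at -0.75 and -0.4. The peptide carrier Slc15a2 was at -2.78 in tumors, with means of 0.396 CPM in KO and 2.73 CPM in WT. Slc25a39, at -0.29 in hypoxia, carries glutathione rather than amino acids.

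Genes of the response to amino acid shortage and of amino acid sensing, likewise listed with earlier results known, were read in the same way. In tumors 0 of 40 were higher and 4 were lower, in hypoxia 2 of 40 were higher and 16 were lower, and in normoxia 1 of 39 was higher and 7 were lower. The shares of all genes called lower were 3.04%, 17.6% and 4.17% in tumors, hypoxia and normoxia, and those called higher 3.28%, 17.4% and 7.13%. Their median log2 fold change was -0.12 in tumors, -0.17 in hypoxia and -0.21 in normoxia, beside 0.01, -0.01 and -0.02 over all genes. Phgdh, which opens serine synthesis, averaged 64.1 ± 11.2 CPM in KO and 120 ± 13.6 CPM in WT cells in hypoxia (SD, n = 4 each), a log2 fold change of -0.91 ± 0.117 (SE, edgeR adjusted p = 0.000202). Psat1, the next enzyme of that path, was at -0.74 in hypoxia and -0.8 in normoxia, and the mitochondrial one-carbon enzymes Shmt2 and Mthfd2 were at -0.65 and -0.51 in hypoxia. Atf5, a transcription factor of the same stress response, was at -0.48 in hypoxia, and Aldh18a1, an enzyme of proline synthesis, at -0.57.

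The 4 genes lower in KO tumors, named after their values were seen, were Ddit4 at -0.57, Myc at -0.63, Castor2 at -0.41 and Sesn2 at -0.48. Ddit4, Castor2 and Sesn2 encode inhibitors of the mTORC1 pathway. Ddit4 and Rragd were higher in KO cells in hypoxia, at 0.25 and 0.89, and Castor2 was higher in normoxia, at 0.38. Atf4 itself was not called, with log2 fold changes of 0.02 ± 0.0877 in tumors, -0.07 ± 0.078 in hypoxia and -0.39 ± 0.125 in normoxia (SE, edgeR adjusted p = 0.938, 0.513 and 0.0647).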

How the data were processed

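The labels' protocols name a Takara SMART-Seq kit for the 22 libraries. The raw counts per gene were deposited by the authors in 3 tables, made with Subread and featureCounts on GRCm38.p6, per the submitters' processing notes, with versions not given. The strand setting is not given in the sources used here. The authors also deposited a normalized signal for each table, for which the submitters' processing notes name DESeq2; each column is the counts times 1 factor, and it served in 1 alternative. Genes listed have at least 2 counts over a table. Tumor columns carry the sample titles. In the culture tables the columns not named WT carry a code and were taken as KO by elimination, not from Vsir. The number of per-sample columns left unused was 0. Within groups no pair of libraries agreed within counting noise (lowest chi-square per degree of freedom 4.91).

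Each table was fitted on its own in edgeR 4.0.16 (R 4.3.3, limma 3.58.1) after filterByExpr, with TMM scaling, a robust quasi-likelihood test, Benjamini-Hochberg adjustment over all genes tested and a threshold of 0.05. Differences of KO effects and of oxygen conditions came from joint fits with 1 mean per group. Scripts were tested on simulated data. Gene positions and exon lengths came from GENCODE M21, which held all 52 members, and promoter letters from RefSeq. Members called in a KO comparison are given in every library; genes of the other lists were named by smallest adjusted p, with Slc7a1, Slc7a2, Slc7a11 and Vsir always. The members and lists were chosen with earlier results of these data known. Alternatives were RLE scaling, library size alone, no filter, DESeq2 1.42.0, a replicate block, a fold threshold of 1.2, limma on the authors' normalized signal, and leaving out libraries.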

Additional observations from a re-analysis of the deposited data

Results flagged for a closer look

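In 5 of 110 groups of 4 libraries checked, 1 library of a member stood far from the other 3, and chance alone sets such a mark in about 1 in 20 groups. Slc7a5 had 269 CPM in replicate 4 of the KO hypoxia cultures, against 193 to 202 CPM in the other 3. Slc38a9 had 24.1 CPM in replicate 3 of the KO hypoxia cultures, against 19 to 19.7 CPM in the others. Slc1a4 had 1.93 CPM in replicate 3 of the WT hypoxia cultures, against 2.63 to 2.71 CPM in the others. Slc36a4 had 56 CPM in replicate 2 of the WT hypoxia cultures, against 44.5 to 45.8 CPM in the others, and Slc38a2 had 200 CPM in replicate 3 of the WT normoxia cultures, against 242 to 250 CPM.

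An interaction term in edgeR called 3 members whose knockout effect differed between experiments. For the glycine carrier Slc6a9 the effect in hypoxia minus that in normoxia was 1.33 on the log2 scale. In that comparison 0.477% of all genes and 1 of 28 members were called. The effect in tumors minus that in hypoxia was 0.45 for the glutamine carrier Slc1a5 and -0.45 for the light chain Slc7a8. There 10.2% of all genes and 2 of 30 members were called. With 1 library left out, the Slc6a9 call was lost in 10 of 16 fits. Those of Slc1a5 and Slc7a8 were lost in 4 and 9 of 14 fits.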

How the results depend on the processing

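Across 3497 values of single members under alternatives, 0 called values changed sign, 123 were no longer called and 41 were newly called. With 1 library left out, the number of members called was 0 to 4 in tumors (3 as reported), 7 to 10 in hypoxia (9) and 3 to 9 in normoxia (6). The tumor count was 0 without KO replicate 1 or KO replicate 2 and 1 without WT replicate 2, and the normoxia count was 3 without KO replicate 3 or WT replicate 4. For hypoxia against normoxia the range was 12 to 15 in KO (15) and 9 to 12 in WT cells (12). For the difference of KO effects it was 0 to 1 between hypoxia and normoxia (1) and 0 to 3 between tumors and hypoxia (2). Against a fold threshold of 1.2 the members called were 0 in tumors, 4 in hypoxia and 3 in normoxia. Without a filter on low counts 6 were called in tumors. DESeq2 called 3 members for the difference between hypoxia and normoxia, and scaling by library size alone called 1 for that between tumors and hypoxia. The cause of these changes was not tested. Scaling by library size alone moved the median of all genes for hypoxia over normoxia in WT cells from -0.01 to -0.15.

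The labels do not say that equal replicate numbers mark a pairing, and the correlation of same-numbered deviations was 0.08 to 0.22 in tumors, -0.16 to 0.02 in hypoxia and -0.06 to 0.37 in normoxia. Each tumor library correlated best with its own number, a hint from the data and not from the design, while in the cultures this did not hold. With the replicate block 8 members were called in tumors, 9 in hypoxia and 8 in normoxia, 14 for oxygen in KO and 9 in WT cells, 0 for the difference between hypoxia and normoxia and 1 for that between tumors and hypoxia. Under the block the interaction of Slc6a9 was 1.35 (edgeR adjusted p = 0.166) and that of Slc1a5 0.45 (0.0514), neither called. Genes with few counts, such as Slc1a4, Slc6a8 and Slc6a9, limit the precision.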
